A study of Mus musculus with 12 samples.

Results

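The genes described here encode LEM-domain proteins of the inner nuclear membrane, their chromatin ligand BAF, the lamins and the lamin B receptor. They were found by symbol in a table of gene counts from mouse hearts, which holds all 10 of them among 24062 symbols: Lemd2, Lemd3, Emd, Tmpo and Ankle2 for the LEM-domain proteins, Banf1 for BAF, Lmna, Lmnb1 and Lmnb2 for the lamins, and Lbr. Whole-heart RNA was sequenced from 12 mice, 1 library per mouse and 3 mice per group. Adult mice, 2 months old, were WT or KI/KI, that is homozygous for the Lemd2 c.T38>G change, and the edited allele also carries a silent change from the same donor. Hearts of postnatal day 1 (P1) came from mice with Lemd2-floxed alleles, whose exon 1 is flanked by loxP sites, and from cKO mice, which carry these alleles together with a Cre driven by the Myh6 promoter. Cre is therefore restricted to cardiomyocytes, the other cells of a cKO heart keep Lemd2, and both P1 groups carry the loxP sites. The adult controls carry neither loxP sites nor Cre.

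The nuclear lamina is a meshwork of lamin filaments under the inner nuclear membrane. A-type lamins, lamin A and lamin C, are both made from Lmna, and B-type lamins come from Lmnb1 and Lmnb2. The LEM domain is a short fold that binds BAF, a small protein that bridges DNA, so that LEM-domain proteins tether chromatin to the envelope. The lamin B receptor, which is not a LEM-domain protein, is a further tether of chromatin. LEMD2 also takes part in resealing the envelope after mitosis, together with BAF and the ESCRT membrane-remodelling machinery. Loss of emerin, encoded by Emd, or of lamin A and C is a textbook cause of muscle and heart disease.

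Lemd2 occupies 27189600 to 27204469 of chromosome 17 (GRCm38, minus strand). The deposited counts are per gene, so reads from later exons are counted also where exon 1 has been removed. Counts of this kind likewise cannot separate lamin A from lamin C, or the splice forms of Tmpo. Banf1 shares 428 exon bases with Eif1ad on the opposite strand, and no strand setting of the counting is given in the sources used here, so reads from that stretch may be from either gene.

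Library totals lay between 37063669 and 44789753 counts. The 10 genes had from 321 to 14365 counts in a heart, so none was near the floor of 3 counts. Levels of a gene across hearts are given in CPM, counts scaled to the library size after TMM normalization over the 12 libraries. Differences are log2 fold changes of edgeR's quasi-likelihood test within the 6 libraries of a comparison, with their standard error (SE) and a Benjamini-Hochberg adjusted p over all genes tested, and a gene was called at an adjusted p under 0.05. All 10 genes passed the filter on low counts in every comparison. Nothing in the labels states that mice of a group came from separate litters, so p-values measure the spread between these hearts. Y-linked genes and Xist marked cKO heart 4 as female and the other 11 as male, and markers of lung tissue were present at over 10 CPM in 5 hearts, in all 4 groups.

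**Figure D1:**
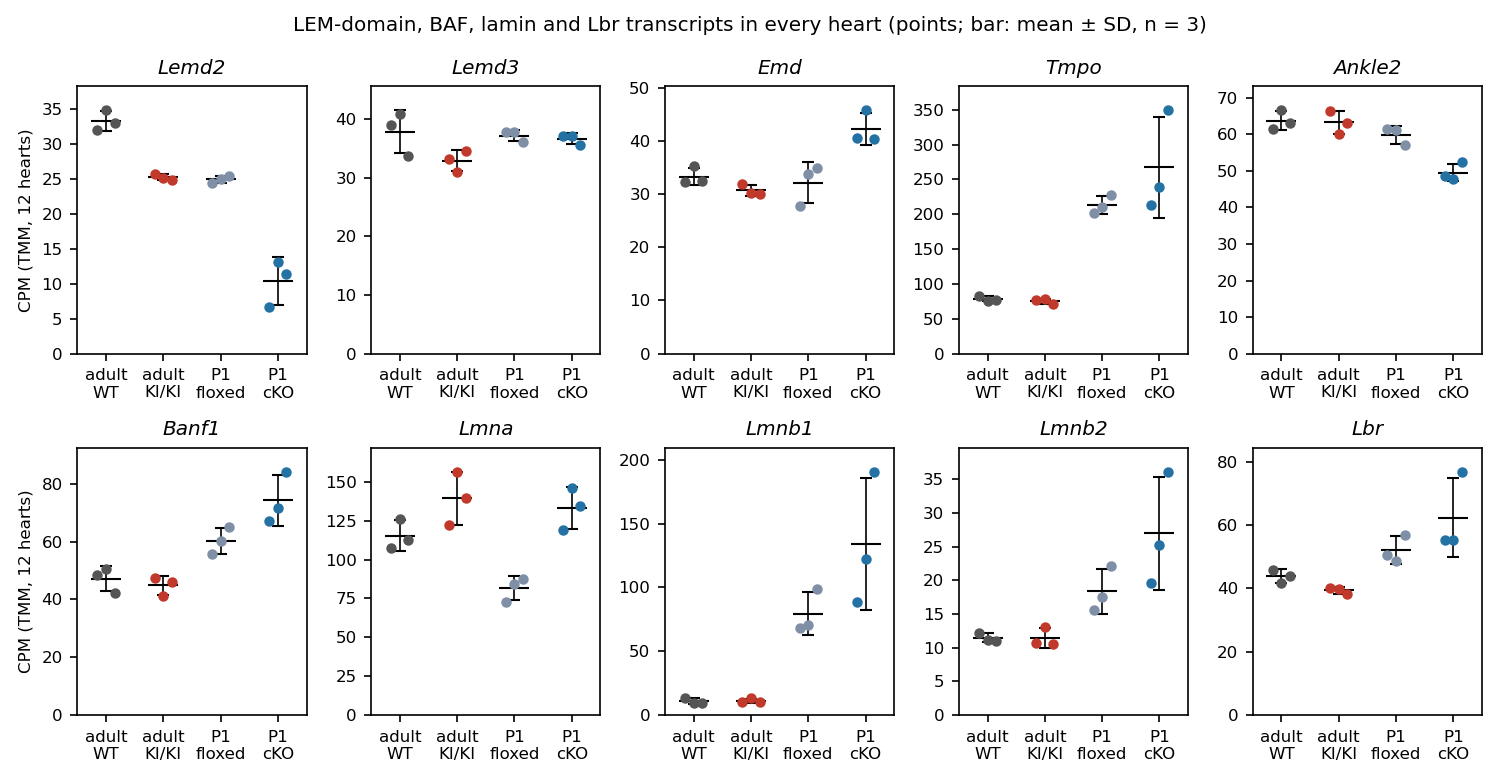
CPM of each of the 10 genes (vertical axis, from 0) in the 3 hearts of each group (points), with the mean and SD as bars. Lemd2 was lowest in the cKO hearts and lower in KI/KI than in WT hearts, Lmna was higher in every cKO heart than in every floxed heart, and Lmnb1 and Tmpo were far higher at P1 than in adults.

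Per unit of length, BAF was the most abundant of these transcripts in control hearts of both ages, and the lamins changed places. In this paragraph levels are TPM, counts divided by the union exon length of GENCODE M21 and scaled to the same total in each library, since only values per length compare genes. In adult WT hearts the order was Banf1 (107 ± 4.59 TPM, mean ± SD, n = 3), Lmna (67.6 ± 5.66), Emd (45.2 ± 2.25), Ankle2 (39.5 ± 2.30), Lbr (31.5 ± 2.37), Lemd3 (26.8 ± 1.24), Tmpo (24.5 ± 1.5), Lemd2 (23.3 ± 1.38), Lmnb1 (12.5 ± 2.43) and Lmnb2 (9.15 ± 0.455). Neighbours in that order did not overlap between hearts, except Lemd3 with Tmpo and Tmpo with Lemd2. In P1 floxed hearts Banf1 (189 ± 6.86 TPM) was followed by Lmnb1 (125 ± 21.9) and Tmpo (90.8 ± 1.81), ahead of Lmna (65.5 ± 4.04). Emd, Lbr, Ankle2, Lemd3, Lemd2 and Lmnb2 followed, from 59.9 down to 20.1 TPM, and the ranges of Lmna and Emd and of Lbr and Ankle2 overlapped. Lemd2, at 24.0 ± 0.455 TPM in these hearts, was thus among the least abundant of its family before any deletion. The order depends on the length used: with the longest annotated transcript of each gene, Tmpo, whose union of exons is 10998 bases against 4441 for that transcript, moved to the first place in P1 floxed hearts at 166 TPM.

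In P1 cKO hearts Lemd2 fell, which checks the deletion, and Lmna rose. These were 2 of the 10 genes, 1 in each direction, where 16.9% of all 15317 genes tested were called (9.32% higher and 7.57% lower, with 2.85% and 1.78% over 2-fold). Lemd2 stood at 24.3, 25.0 and 25.4 CPM in the floxed hearts and at 6.59, 13.1 and 11.4 CPM in cKO hearts 4, 5 and 6. Every cKO heart was below every floxed heart, and the female heart 4 was the lowest. The mean was 41.6% of that of the controls (log2 fold change -1.27, SE 0.22, adjusted p = 0.0142). With floxed heart 1 left out the adjusted p was 0.0761, and with floxed heart 2 left out it was 0.0594. In bulk tissue, fewer cardiomyocytes and less Lemd2 RNA in each cannot be told apart.

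Lmna had 73.0, 84.4 and 87.5 CPM in the 3 floxed hearts against 119, 146 and 135 CPM in the cKO hearts. The lowest cKO heart was well above the highest floxed heart. The log2 fold change was 0.70 (SE 0.10, adjusted p = 0.00854), 163% of the control mean, and leaving out single hearts gave values from 0.63 to 0.77, with an adjusted p of 0.0581 without floxed heart 1. Markers of other cells moved in the same hearts. The summed level of 6 fibroblast markers was 3788 to 4172 CPM in floxed and 5519 to 6081 CPM in cKO hearts, with 3 of the 6 called higher: Tcf21 (log2 fold change 1.05), Postn (0.79) and Col1a1 (0.56). Col1a2 (0.37), Dcn (-0.14) and Pdgfra (-0.16) were not called. The 7 cardiomyocyte markers summed to 38243 to 43668 CPM in floxed and 28479 to 31485 CPM in cKO hearts, and Pln, Ryr2, Tnni3 and Ttn were called lower, while Actn2 had a log2 fold change of 0.32 and was not called. The 7 leukocyte markers summed to 51.2 to 60.4 CPM and 71.1 to 93.0 CPM, with Emr1 and Cd68 called higher, while S100a8 (-0.34) and S100a9 (-0.68) had values below 0 and were not called. The 5 endothelial markers summed to 969 to 1061 CPM and 1144 to 1416 CPM, with Emcn and Pecam1 called higher. None of these markers was at 0 throughout, and their part in the result for Lmna was not tested.

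Emd and Ankle2 lay at the edge of the threshold in cKO hearts. Emd, an X-linked gene between 74254687 and 74261548 of chromosome X, was at 27.8, 33.7 and 35.0 CPM in floxed and at 40.6, 45.8 and 40.3 CPM in cKO hearts, higher in each cKO heart than in any floxed one. Its log2 fold change was 0.39 (SE 0.11) with an adjusted p of 0.05004, just above the threshold. The female heart, at 40.6 CPM, lay between the 2 male cKO hearts, and without it the log2 fold change was 0.41 (adjusted p = 0.0804). Ankle2, whose product brings a phosphatase to BAF at the end of mitosis, was at 61.5, 61.1 and 57.1 CPM in floxed and at 48.7, 47.7 and 52.3 CPM in cKO hearts, with no overlap. Its log2 fold change was -0.28 (SE 0.08, adjusted p = 0.0505). Both genes were called by DESeq2, with adjusted p of 0.0173 for Emd and 0.0124 for Ankle2. Over all alternatives the adjusted p of Emd ran from 0.0104 to 0.187 and that of Ankle2 from 0.0124 to 0.188.

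The remaining 6 genes were not called in cKO hearts by edgeR either, while DESeq2 called Banf1 (adjusted p = 0.0492) and Lmnb1 (adjusted p = 0.0268). Banf1 was at 55.9, 60.1 and 64.97 CPM in floxed and at 67.2, 71.5 and 84.2 CPM in cKO hearts (log2 fold change 0.30, SE 0.10, adjusted p = 0.0757), again without overlap. Lemd3, which encodes the Smad-binding protein MAN1, was at 36.0 to 37.8 CPM in floxed and 35.6 to 37.2 CPM in cKO hearts (-0.02, SE 0.08), a fold change whose 1 SE range spans 0. The B-type lamins, Tmpo and Lbr had log2 fold changes of 0.26 to 0.74, all with overlapping groups. In all, 3 of the 10 genes were higher without overlap and 2 lower, where 19.9% and 19.1% of all genes were (39% together), and 5 were higher and 2 lower at an unadjusted p under 0.05, where 18.5% and 16.2% of all genes were (34.6% together). The median log2 fold change of the 10 was 0.31, against -0.00 over all genes tested.

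**Figure D2:**
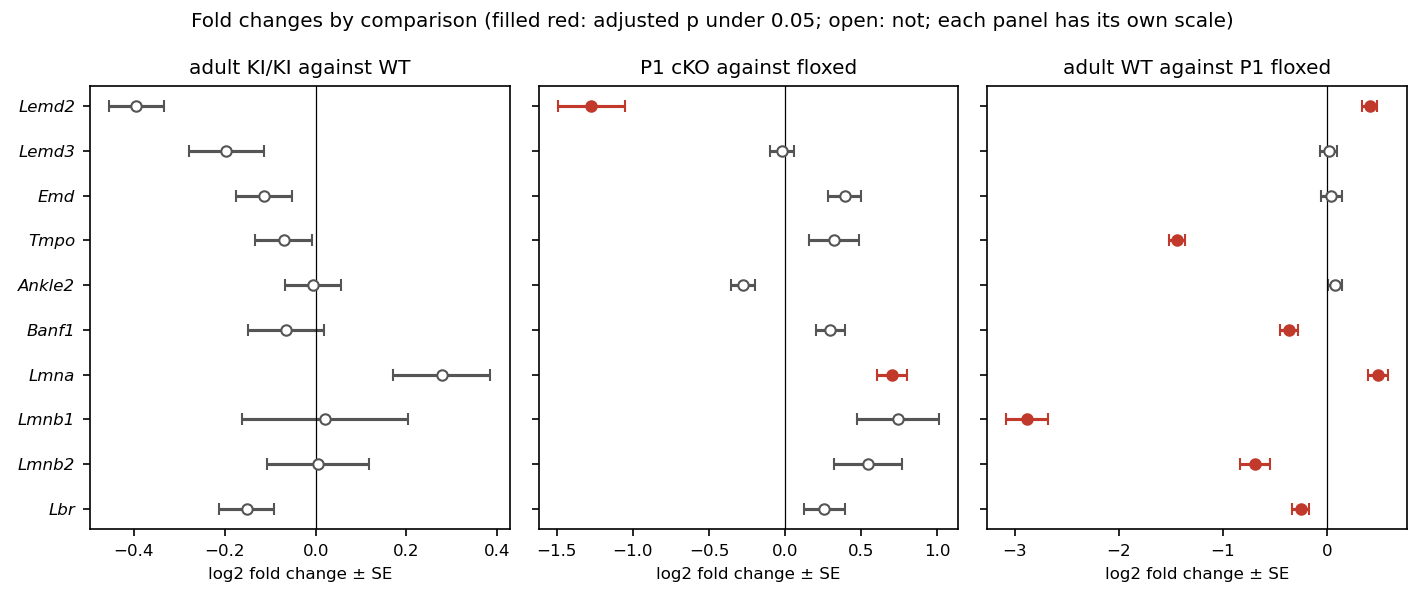
Log2 fold changes with their SE (horizontal axes, a separate scale in each panel) of the 10 genes in the comparisons of adult KI/KI with WT, P1 cKO with floxed, and adult WT with P1 floxed hearts. Filled red points were called at an adjusted p under 0.05: none in the adult mutant comparison, Lemd2 and Lmna in the P1 one, and 7 genes between the ages.

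Lmnb1, Lmnb2, Tmpo and Lbr were uneven among the cKO hearts, and cKO heart 6 was the highest for each. Lmnb1 was at 68.5, 70.8 and 99.1 CPM in floxed and at 88.5, 123 and 191 CPM in cKO hearts 4, 5 and 6 (log2 fold change 0.74, SE 0.27, adjusted p = 0.0996). Lmnb2 was at 15.6, 17.5 and 22.1 CPM and at 19.6, 25.3 and 36.1 CPM (0.54, SE 0.22, adjusted p = 0.135). Floxed heart 3 was the highest control for both and overlapped cKO heart 4. Tmpo, which encodes the LAP2 proteins, was at 202, 210 and 227 CPM in floxed and at 214, 239 and 349 CPM in cKO hearts (0.32, SE 0.17, adjusted p = 0.216). Lbr, a lamin B receptor that is also a sterol reductase, was at 50.4, 48.6 and 57.0 CPM and at 55.1, 55.2 and 76.8 CPM (0.26, SE 0.14, adjusted p = 0.225). Without cKO heart 6 the log2 fold changes were 0.41 for Lmnb1, 0.29 for Lmnb2, 0.09 for Tmpo and 0.09 for Lbr. Without cKO heart 4 they were 0.96 for Lmnb1, which was then called (adjusted p = 0.0407), 0.72 for Lmnb2, 0.45 for Tmpo and 0.33 for Lbr.

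The same hearts stood out for transcripts of genes of dividing cells. By staining for the Ki67 protein, the study reports a decrease of proliferation in cKO hearts, a measure that RNA levels of whole hearts do not give. That staining is described together with sections of hearts older than P1, the age of the RNA. From the P1 RNA, the study also reports pathways of negative regulation of proliferation and the cell cycle among those most raised in cKO hearts. A list of 15 proliferation genes, none of them among the 10, summed to 535, 534 and 753 CPM in floxed hearts 1, 2 and 3 and to 784, 989 and 1993 CPM in cKO hearts 4, 5 and 6. Floxed heart 3 was thus the highest control and cKO heart 6 the highest of all, as for Lmnb1 and Lmnb2. In the test, 4 of the 15 were called higher in cKO hearts and none lower: Ccnb1 (log2 fold change 1.99), Ccnb2 (1.38), Bub1 (1.32) and Cdk1 (1.16), all of which act at entry into or passage through mitosis, and the median of the list was 1.13. With the mean log2 level of this list as a covariate, an alternative added after seeing the values, the log2 fold changes were -0.05 for Lmnb1, -0.08 for Lmnb2, -0.15 for Tmpo and -0.08 for Lbr, none called, while that of Lmna was 0.64 (adjusted p = 0.0184) and that of Lemd2 was -1.55 (adjusted p = 0.0171). The covariate itself lay at 4.74 to 5.21 in floxed and at 5.29 to 6.62 in cKO hearts, so it separated the genotypes. With these 6 hearts the fit cannot tell proliferation from genotype, and which of the 2 goes with the B-type lamins was not tested.

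**Figure D3:**
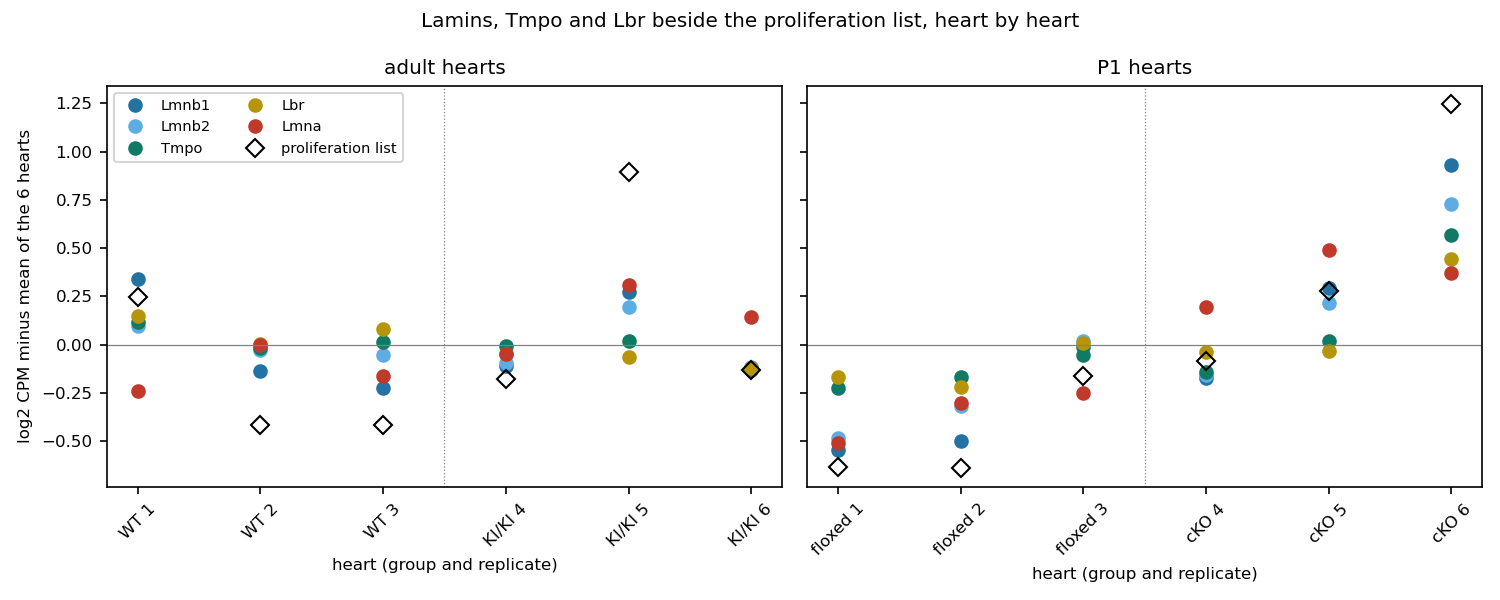
Log2 CPM of Lmnb1, Lmnb2, Tmpo, Lbr and Lmna (filled points) and the mean of the 15 proliferation genes (open diamonds) in each heart, minus the mean of the 6 hearts of that age (vertical axis). In P1 hearts the diamonds ran from -0.64 to 1.24, with cKO 6 at the top, where Lmnb1 was at 0.93 and Lmna at 0.37.

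The sequence before the start of Tmpo and of Lbr is shown for 2 reasons. Both were highest in cKO heart 6, the P1 heart with most proliferation transcripts. Each also held 2 copies of CCAAT, a motif bound by the factor NF-Y and frequent before cell-cycle genes. Among adult hearts KI/KI heart 5 had most proliferation transcripts. Its Tmpo (77.6 CPM) and Lbr (39.7 CPM) were below those of WT heart 1 (83.1 and 46.0 CPM). Promoters were taken from RefSeq on GRCm38.p6 and are described for 8 of the 10 genes, all but Lemd2 and Lmnb1. The 120 bases that end at the base before the annotated start are printed on the strand of the gene, with CCAAT in capitals. They lie at chr10:91171620-91171739 for Tmpo and chr1:181842402-181842521 for Lbr, both on the minus strand.
Tmpo promoter: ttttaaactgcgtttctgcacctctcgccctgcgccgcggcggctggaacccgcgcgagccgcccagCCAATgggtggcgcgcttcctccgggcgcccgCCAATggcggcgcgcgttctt
Lbr promoter: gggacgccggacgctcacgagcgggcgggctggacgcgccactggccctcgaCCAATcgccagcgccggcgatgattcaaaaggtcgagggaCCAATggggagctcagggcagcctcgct

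The copies begin 53 and 21 bases before the start of Tmpo and 68 and 28 bases before that of Lbr. Searched on both strands in the 250 bases before the start, CCAAT was found at least once in 33.8% and at least 2 times in 10.1% of 32851 promoters, so a single copy is common. Banf1, Emd, Lemd3 and Lmna held 1 copy in a promoter. No promoter of Ankle2 or of Lmnb2, which was also highest in cKO heart 6, held CCAAT or another motif searched here. The motif TTTCCCGC, a site of E2F type, was found in a promoter of Banf1, 81 bases before the start, and at a second start of Tmpo, 195 bases before it, against 0.895% of all promoters. TTTGAA, the core of the CHR element of cell-cycle promoters, was found in Lbr and at that second start of Tmpo, against 16% of all promoters, and TTTGGCGC in none of the 8, against 0.417%. Such matches describe the sequence and show no binding.

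In adult KI/KI hearts none of the 10 genes was called by edgeR, as was true of all 14592 genes tested (0%). DESeq2 called Lemd2 alone, and limma-voom called none. At an unadjusted p under 0.05, Lmna was higher and Lemd2, Lemd3 and Lbr lower, that is 1 and 3 of 10, where 8.92% and 7.28% of all genes were (16.2% together). Lemd2, the edited gene, was at 32.0, 34.8 and 32.9 CPM in WT and at 25.6, 25.2 and 24.8 CPM in KI/KI hearts. The KI/KI hearts were closely grouped and all below the WT hearts, at 75.8% of the WT mean (log2 fold change -0.39, SE 0.06, adjusted p = 0.181). By DESeq2 the log2 fold change was -0.40, with an adjusted p of 0.000236, and leaving out single hearts gave edgeR values from -0.43 to -0.37.

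The other members had log2 fold changes from -0.20 to 0.28 in KI/KI hearts, none called by edgeR or DESeq2. Lmna was at 107, 126 and 113 CPM in WT and at 122, 156 and 139 CPM in KI/KI hearts, with overlapping groups (log2 fold change 0.28, SE 0.11, adjusted p = 0.289). KI/KI heart 5 was the highest, and it was also the highest of the adult hearts for the fibroblast markers (2975 CPM, against 1446 to 1960 in the other 5) and for the proliferation list (169 CPM, against 85.6 to 123). Without that heart the log2 fold change of Lmna was 0.18 (adjusted p = 0.55), and the part of these markers in it was not tested. Lbr was at 41.7 to 46.0 CPM in WT and 38.2 to 40.2 CPM in KI/KI hearts (-0.15, SE 0.06, adjusted p = 0.297), and Emd was at 32.3 to 35.3 and 30.0 to 31.9 CPM (-0.11, SE 0.06, adjusted p = 0.395). In CPM, these 2 genes and Lemd2 were the 3 of 10 lower without overlap, where 10.4% of all genes were. None was higher, where 11.4% were (21.8% together). On the TPM scale Lbr and Emd overlapped between the groups, while Lemd2 and Lemd3 were lower without overlap. Lmna was higher without overlap there, at 61.1 to 71.4 TPM in WT and 72.8 to 100 TPM in KI/KI hearts. The share of all genes was not counted on that scale. Lemd3 was at 39.0, 40.8 and 33.8 CPM in WT and 33.3, 30.9 and 34.6 CPM in KI/KI hearts (-0.20, SE 0.08, adjusted p = 0.307). Tmpo, Ankle2, Banf1, Lmnb1 and Lmnb2 had log2 fold changes from -0.07 to 0.02, and those of Ankle2, Lmnb1 and Lmnb2 changed sign under some alternatives. For Lmnb1 the SE was 0.18, so these hearts give no narrow bound on its change. The median over the 10 was -0.07, against 0.00 over all genes tested.

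The difference between the models was tested directly, as the change in cKO against floxed hearts minus that in KI/KI against WT hearts, in a fit of all 12 libraries. None of the 10 genes was called by edgeR, where 2.43% of 15729 genes were (1.17% higher and 1.27% lower). At an unadjusted p under 0.05, 4 of the 10 were higher and 2 lower, where 9.95% and 10.1% of all genes were (20% together). DESeq2 called 1 higher, Emd, and 1 lower, Lemd2. The difference was -0.87 (SE 0.25, adjusted p = 0.0887) for Lemd2, 0.51 (SE 0.13, adjusted p = 0.0646) for Emd and 0.44 (SE 0.16, adjusted p = 0.153) for Lmna. The rise of Lmna in cKO hearts is therefore not shown to differ from its value in KI/KI hearts.

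Between the controls of the 2 ages, Lmnb1 and Tmpo had the widest differences of the 10 genes, both lower in adults. Of the 10 genes, 7 were called between adult WT and P1 floxed hearts, 2 higher and 5 lower in adults, where 65.2% of 15183 genes were called (31.8% higher and 33.4% lower), so that a call is common here. The same 7 did not overlap, against 70.8% of all genes (34.4% higher and 36.4% lower). Lmnb1 was at 9.22 to 13.6 CPM in adult WT and at 68.5 to 99.1 CPM in P1 floxed hearts, 13.7% of the P1 mean (log2 fold change -2.88, SE 0.20, adjusted p = 1.19e-05). Tmpo was at 75.9 to 83.1 CPM and 202 to 227 CPM, 37.0% of the P1 mean (-1.44, SE 0.07, adjusted p = 2.37e-06). These were the 2 called changes over 2-fold, where 13.4% of all genes were higher and 13.9% lower by that much. Age, the floxed alleles and any batch cannot be told apart in this comparison.

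The other B-type lamin, Lmnb2, was lower in adults by less (log2 fold change -0.69, SE 0.14, adjusted p = 0.00306), as were Banf1 (-0.36, SE 0.09, adjusted p = 0.00739) and Lbr (-0.25, SE 0.08, adjusted p = 0.0279). The call of Lbr was lost without WT heart 2, WT heart 3 or floxed heart 3, with adjusted p up to 0.104. Lmna (0.49, SE 0.09, adjusted p = 0.00206) and Lemd2 (0.41, SE 0.07, adjusted p = 0.00139) were higher in adults on the TMM scale. On the TPM scale, in which the values of each heart have the same sum, Lmna was at 67.6 TPM in adult WT and 65.5 TPM in P1 floxed hearts and Lemd2 at 23.3 and 24.0 TPM, so the higher value of Lemd2 in adults is not seen there, and neither difference exceeded the spread between hearts. Lemd3, Emd and Ankle2 had log2 fold changes of 0.02 to 0.08 and were not called, and each changed sign under some alternative and was lower in adults on the TPM scale. All 15 proliferation genes were called lower in adults, with a median of -3.56, and their part in the values of Lmnb1 and Tmpo was not tested.

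The makeup of the lamin transcripts changed over between the ages. Per length, Lmna made up 71.1% to 78.5% of the lamin TPM in adult WT hearts, 78.1% to 80.5% in KI/KI hearts, 28.0% to 34.1% in P1 floxed hearts and 24.1% to 37.2% in cKO hearts. Lmnb1 made up 56.3% to 62.4% in floxed and 54.5% to 67.1% in cKO hearts. The log2 ratio of Lmna to the sum of Lmnb1 and Lmnb2 was 1.65 ± 0.30 (SD, n = 3) in WT, 1.91 ± 0.12 in KI/KI, -1.14 ± 0.21 in floxed and -1.11 ± 0.48 in cKO hearts. The ratio was 6.89-fold higher in adult WT than in P1 floxed hearts (exact two-sided permutation p = 0.1, the smallest that 3 hearts against 3 can give). In adults the KI/KI ratio was 0.26 higher on the log2 scale (exact permutation p = 0.3), and at P1 the cKO ratio differed by 0.03 (exact permutation p = 0.9). With single hearts left out the adult difference lay between 0.09 (without WT heart 1) and 0.38, and the P1 difference between -0.15 and 0.30, so 3 hearts against 3 set no narrow bound on either. For the adult ratio of Lmna to Lmnb2 alone the groups did not overlap (0.28 on the log2 scale, exact permutation p = 0.1, the smallest possible). At P1, 2 of the 3 cKO hearts had levels of Lmnb1 and Lmnb2 themselves above those of every floxed heart. The spread of the cKO ratio was wide: cKO heart 4 had the highest ratio of the 6 P1 hearts, 0.592, and cKO heart 6 the lowest, 0.317.

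**Figure D4:**
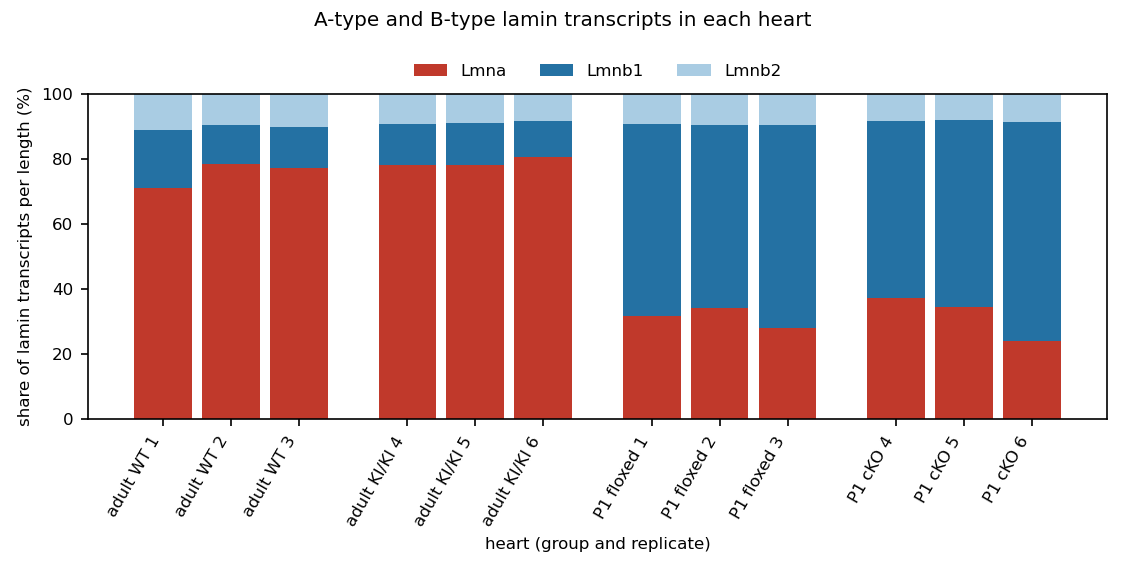
Share of Lmna (red), Lmnb1 (dark blue) and Lmnb2 (light blue) in the lamin transcripts per length of each heart (vertical axis, percent of their summed TPM). Lmna takes at least 71.1% in each adult heart and at most 37.2% in each P1 heart, in controls and mutants.

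Proteins that act with the members were read from lists of other genes. Among 12 genes of the Smad pathway, which MAN1 restrains, 4 were called higher in cKO hearts and 1 lower, where 9.32% and 7.57% of all genes were. Smad7 rose from 27.5 ± 2.91 to 67.9 ± 20.3 CPM (log2 fold change 1.31, SE 0.24, adjusted p = 0.0157), Smad1 (0.57) and Id3 (0.56) rose, and Smad3 fell (-0.51). Smad7 is an inhibitor of the pathway and Id3 is a target of BMP signals. The median of the list was 0.27, and Lemd3 itself was at 98.6% of its control mean. Of 6 genes for the farnesylation, cleavage and binding of prelamin A, only Narf was called, and it fell from 137 ± 11.1 to 83.5 ± 6.36 CPM (-0.71, SE 0.09, adjusted p = 0.00723). Of 14 other inner-membrane or lamina-linked genes only Mlip, a partner of lamin A in muscle, was called (-0.37, SE 0.08, adjusted p = 0.0228).

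No gene was called among 15 chromatin tethers or among 13 genes of BAF phosphorylation and the ESCRT machinery. The medians of these lists were 0.06 and 0.01. Of 20 sterol synthesis genes, the pathway in which Lbr has its enzyme activity, Hsd17b7 fell from 92.9 ± 9.61 to 54.7 ± 5.07 CPM (log2 fold change -0.77, SE 0.10, adjusted p = 0.00688) and no other was called. In adult KI/KI hearts edgeR called no gene of these lists, as it called none of the whole table. Hsd17b7 was there at 19.8 ± 14.3 CPM in WT and 65.6 ± 28.0 CPM in KI/KI hearts, without overlap (log2 fold change 1.72, SE 0.64, adjusted p = 0.283). Between the ages, 15 of the 20 sterol genes and 10 of the 15 chromatin tethers were called lower in adults, where 33.4% of all genes were, while 5 of the 6 prelamin A genes were called higher, where 31.8% were.

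The genes whose pattern over the 12 hearts lay nearest to that of Lemd2, by the root mean square difference of centred log2 CPM among 15728 other genes, were Panx2 (0.19), Agtr1a (0.22), Hdac11 (0.23), 1810034E14Rik (0.24) and Mblac2 (0.25). The standard deviation of Lemd2 itself over these hearts was 0.69 on the same scale. Each of the 5 had its lowest group mean in the cKO hearts. Hdac11, a histone deacetylase, was at 34.3 ± 1.81 CPM in WT, 27.5 ± 3.94 in KI/KI, 26.5 ± 2.98 in floxed and 12.7 ± 1.23 in cKO hearts, against 33.2 ± 1.41, 25.2 ± 0.418, 24.9 ± 0.538 and 10.4 ± 3.38 CPM for Lemd2. Panx2, which encodes a channel protein, did not have the step between WT and KI/KI hearts, with 4.14 ± 0.307 and 3.97 ± 0.206 CPM. The likeness is a description over hearts of 4 groups and rests largely on the cKO hearts.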

How the data were processed

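Whole hearts of 12 mice in 4 groups of 3 were analysed. The authors prepared poly(A) libraries, trimmed single-end reads with Trim Galore, aligned them with STAR 2.7.2b to mm10, counted them with HTSeq and deposited whole-number counts per gene symbol, not normalized. The submitters' processing notes also name SAMtools 1.9, Bowtie2 2.3.4.3 and DESeq2. No strand setting of the counting is given in the sources used here.

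The test was that of edgeR 4.0.16, run in R 4.3.3 (filterByExpr, TMM, robust quasi-likelihood test, Benjamini-Hochberg adjustment). SEs come from the log2 fold change and the F statistic. TPM used union exon lengths, known for 98.4% of symbols. Floors and count errors cover counting error only.

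The 10 members and the gene lists were chosen with earlier results of these data known. Beside the members, up to 4 called genes per list, those with the widest changes, and the 5 genes nearest to Lemd2 are named. For cell markers, values are given only where they touch a member. Markers named without a call were chosen after their values were seen. Alternatives were DESeq2 1.42.0, limma-voom (limma 3.58.1), other size factors, filters, dispersions, thresholds, lengths and covariates, a replicate block and each heart left out. The study's DESeq2 test was kept as an alternative. No 2 replicates held the same counts (chi-square per degree of freedom of 19.3 or more). Scripts were tested on simulated data. One further sequence, beside the 2 promoters printed, is not reported here.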

Additional observations from a re-analysis of the deposited data

Results flagged for a closer look

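Emd stood out because its groups separated in opposite directions in the 2 models on the CPM scale. Each KI/KI heart was below each WT heart (log2 fold change -0.11), and each cKO heart was above each floxed heart (0.39). On the TPM scale the adult groups overlapped, at 42.7 to 46.8 TPM in WT and 42.1 to 44.8 TPM in KI/KI hearts. The P1 groups did not overlap on that scale either. Of all genes tested, 10.4% were lower without overlap in KI/KI hearts and 19.9% were higher without overlap in cKO hearts. The share of genes with both was not counted. Neither change of Emd was called by edgeR, while DESeq2 called that in cKO hearts (adjusted p = 0.0173). The test of the difference itself gave 0.51 on the log2 scale (SE 0.13, unadjusted p = 0.00228, adjusted p = 0.0646, edgeR), so it did not pass the correction, while DESeq2 gave 0.53 with an adjusted p of 0.00923. With each heart left out in turn the difference lay between 0.42 and 0.57, and it was called without floxed heart 3 or without cKO heart 6. Without the female cKO heart 4 it was 0.54 (adjusted p = 0.0747). The cause was not tested.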

How the results depend on the processing

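Of 720 values of the 10 genes under alternative settings, 654 kept direction and side of the threshold, 13 lost a call, 26 gained one and 27 changed sign, none of them for a called gene. In KI/KI hearts DESeq2 called 1 gene lower, and 309 genes higher and 211 lower in all, against 0 with edgeR. In cKO hearts DESeq2 called 4 genes higher and 2 lower, where it called 2091 and 1692 of 15317 in all. The fit of 12 libraries also gave 4 and 2 (2179 and 1934 of 15729 in all). It was 2 and 2 with at least 10 counts in every library (1416 and 1251 of 14245) or a non-robust dispersion (1446 and 1162 of 15317). It was 2 lower with RLE factors (1153 lower in all), upper quartile (1465) or the legacy fit (1119). The Y-linked covariate gave 2 higher (934 in all), and an adjusted p under 0.01 gave 0 lower (189 in all). Leaving out hearts gave 0 to 2 in each direction. It was 0 and 0 without floxed 1 (86 and 74 of 15538 genes in all) and 0 lower without floxed 2 (365 of 15534). It was 2 higher without cKO 4 (1037 of 15528) and 2 and 2 without cKO 6 (1942 and 1521 of 15673). For the difference between the models it was 1 and 1 with DESeq2 (732 and 561 of 15729 genes in all) and 1 lower with the Y-linked covariate (114 of 15729). With a heart left out it was 0 to 1 in each direction. Emd was called without floxed 3 or cKO 6 (324 and 487 genes higher in all), and Lemd2 without cKO 4 (142 lower in all). Between the ages, 1 was higher with the fit of 12 libraries (4871 of 15729 genes in all). With the Y-linked covariate 0 were higher and 2 lower (3000 and 2380 of 15183 in all). That covariate was 6.13 to 6.22 in adult WT and 6.07 to 6.10 in floxed hearts, so it cannot be told apart from age. These hearts and the KI/KI hearts were all male, so it carried no sex difference in the age or the adult mutant comparison.

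The log2 lamin ratio of cKO against floxed hearts lay between -0.15 and 0.30 with a heart left out, below 0 without floxed 3, cKO 4 or cKO 5. Signs changed in KI/KI hearts for Lmnb2 (-0.00203 with DESeq2, -0.00151 with RLE, -0.00183 with 12 libraries, -0.0369 with the Y-linked covariate, -0.107 to 0.0613 with a heart left out), Lmnb1 (-0.0383 with that covariate, -0.128 to 0.204 with a heart left out) and Ankle2 (0.00505 with that covariate, -0.0417 to 0.0272 with a heart left out). In cKO hearts they changed for Lemd3 (-0.0489 to 0.00349 with a heart left out) and, with the proliferation covariate, for Lemd3 (0.0821), Tmpo (-0.147), Lmnb1 (-0.0539), Lmnb2 (-0.0775) and Lbr (-0.0840). Between the ages they changed for Lemd3 (-0.0583 with upper quartile, -0.00478 with at least 10 counts, -0.169 with the Y-linked covariate, -0.0299 to 0.114 with a heart left out), Emd (-0.0301 with upper quartile, -0.0540 to 0.115 with a heart left out) and Ankle2 (-0.00913 with the Y-linked covariate). The causes were not tested. The legacy fit and the proliferation covariate were chosen after seeing the data.

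The replicate numbers of the labels did not pair the hearts throughout: same-numbered hearts correlated at -0.28, -0.32 and -0.59 in WT and floxed hearts and at 0.26, 0.23 and 0.07 in KI/KI and cKO hearts. For KI/KI hearts 4 and 5 the cKO heart of the same number was the best match, and for no other number was this so. With the replicate block the members called between the ages were again 2 higher and 5 lower, and for the difference between the models 0 and 0, where over all genes it called 0 against 184 higher and 199 lower. With the longest transcript as length, 29 of 40 TPM levels moved by more than 1 SD.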
